A study of Mus musculus with 6 samples.

Results

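Classical monocytes are the Ly6C-high blood and marrow monocytes of the mouse, and 9 genes that are read as their abundant transcripts were followed here: Ly6c2, Chil3, Fn1, F13a1, Vcan, Hp, Mgst1, Plac8 and Lyz2. The members were set by name, with earlier results of these data known. All 9 of the 9 names were found among the 49585 rows of the table, and all 9 were above the filter on low values. The RNA came from monocytes of mouse bone marrow, taken by negative selection with a magnetic kit, from 3 samples of genotype Syk+/+ and 3 of genotype Sykdel/del. Mice of both genotypes had received a high-fat diet, and the description of the series puts its length at 8 weeks. In the line of the study the floxed Syk gene is removed by Rosa26CreER(T2), a Cre recombinase that is present in all tissues and acts after tamoxifen, so the deletion is not limited to monocytes. The methods of the study start the diet at 8 weeks of age and name male mice for work in vivo and either sex for work in vitro, without saying which holds for these samples. The sources used here do not say whether the control mice also received tamoxifen. The comparison asks whether the level of each gene differs between monocytes that carry Syk, the kinase that relays signals from immune receptors, and monocytes from which it was deleted.

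Classical monocytes arise in the marrow from myeloid progenitors, enter blood and tissues through the chemokine receptor Ccr2, and can turn into non-classical monocytes, which patrol the vessel wall and hold little Ly6C. Their transcripts are rich in secreted and granule proteins shared with other myeloid cells. Ly6c2 encodes the GPI-anchored surface protein by which these cells are sorted. Fn1 encodes fibronectin, Vcan the proteoglycan versican and F13a1 the A subunit of coagulation factor XIII, a transglutaminase that cross-links fibrin and fibronectin. Chil3 (Ym1) is a chitinase-like secreted lectin, Hp is haptoglobin, which binds free haemoglobin, and Lyz2 is lysozyme M, which cleaves bacterial cell walls. Mgst1 is a microsomal glutathione transferase of the MAPEG family, and Plac8 is a small cysteine-rich protein.

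The members lie on 8 chromosomes of GRCm38, and only F13a1 and Vcan share one, chromosome 13. Promoter sequences of RefSeq (GRCm38.p6), covering 250 bases before and 50 bases after each start, were matched by symbol for 7 of the 9 members, 11 promoters in all, and not for Fn1 and Hp. The letters GAGGAAG, a form of the site of the myeloid factor PU.1, were searched on both strands. They occurred in 5 promoters of 3 members (Ly6c2, F13a1 and Mgst1), and in 13.6% of 32851 mouse promoters of the same length. The promoters of Ly6c2 overlap and hold the same sites, so they are not separate occurrences. The letters TTGCNNAA, a form of the C/EBP site, occurred in promoters of 2 members (Mgst1 and Plac8) and in 10.8% of all promoters. TATAAA was present in 1 member (Chil3), against 13.6% of all promoters. The following stretches show the site upstream of the start of the surface marker and of the factor XIII gene, with GAGGAAG in capitals and 20 bases on each side. They lie at chr15:75112053-75112099 and chr13:37050284-37050330, both on the minus strand, with the site beginning 108 and 66 bases before the start.
Ly6c2: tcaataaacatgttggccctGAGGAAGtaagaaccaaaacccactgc
F13a1: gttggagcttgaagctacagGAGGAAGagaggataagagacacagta

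Lyz2 has a near copy, Lyz1, beside it on chromosome 10, and the pair is shown because the levels of the copies were far apart in every library. The 100 bases from 150 to 51 before the RefSeq start are given below, from chr10:117282323-117282422 for Lyz2 and chr10:117292919-117293018 for Lyz1, both on the minus strand. Of these, 84 bases were the same in an alignment that allowed gaps. The capitals mark the other 16 of each gene, which differ or face a gap. Gaps are not printed, so the first bases of the lines do not stand directly under each other.
Lyz2: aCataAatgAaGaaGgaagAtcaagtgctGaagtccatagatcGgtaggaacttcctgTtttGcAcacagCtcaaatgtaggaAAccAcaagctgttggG
Lyz1: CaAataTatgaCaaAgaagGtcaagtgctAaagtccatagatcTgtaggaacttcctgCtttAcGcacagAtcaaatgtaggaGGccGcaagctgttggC

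The unit used throughout is the normalized count, a read count multiplied by 1 factor per library and not divided by gene length. Reads recovered from the table totalled 6805111 to 7071823 in Syk+/+ and 4168626 to 6254375 in Sykdel/del, and the members held 529 to 95104 reads in any 1 library. Differences are log2 fold changes of Sykdel/del against Syk+/+ on the log2(normalized count + 1) scale, from limma fitted over 14023 genes, with p-values adjusted by the Benjamini-Hochberg method over all of them and 0.05 as the threshold. Of these genes 52 passed (0.371%), of which 49 were lower (0.349%) and 3 higher (0.0214%) in Sykdel/del. Syk itself was at 4463, 5527 and 5427 in Syk+/+ and at 4794, 5094 and 4712 in the libraries labelled Sykdel/del. Its difference was -0.07 on the log2 scale (standard error 0.10, limma adjusted p = 1.00), and since the exon deleted is not named in the text used here and the remaining exons can still be counted, this level does not check the labels. Sykdel/del replicates 1 and 3 stood apart from the other libraries by gene length, in opposite directions, as described with the library patterns. The legend of the study counts the sequenced samples per group of mice, while the labels do not tie each library to its own mouse. If libraries share a mouse, p-values measure only how far these libraries differ within a genotype, and that spread may be technical. In bulk RNA, fewer cells of a type and less RNA per cell cannot be told apart.

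None of the 9 genes of classical monocytes differed between the genotypes past the threshold. By limma 0 of 9 had an adjusted p under 0.05, beside 0.371% of all genes, and 1 of 9 (Chil3) had an unadjusted p under 0.05, beside 5.26% of all genes. By limma-voom on the recovered reads the count was again 0, with Chil3 and Fn1 under 0.05 before adjustment (adjusted p = 0.52 and 0.82). The estimates were above 0 for 8 of 9 members, with a median of 0.16 on the log2 scale, where 50.3% of all genes tested were above 0 with a median of 0.001. Among the 3104 genes whose mean reached 500 normalized counts, the quartiles were at -0.06 and 0.06. The genotypes did not overlap for 1 member, Fn1, which was higher in all 3 Sykdel/del libraries, beside 4.94% of all genes that were higher without overlap. No member was lower without overlap, beside 5.19% of all genes.

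**Figure D1:**
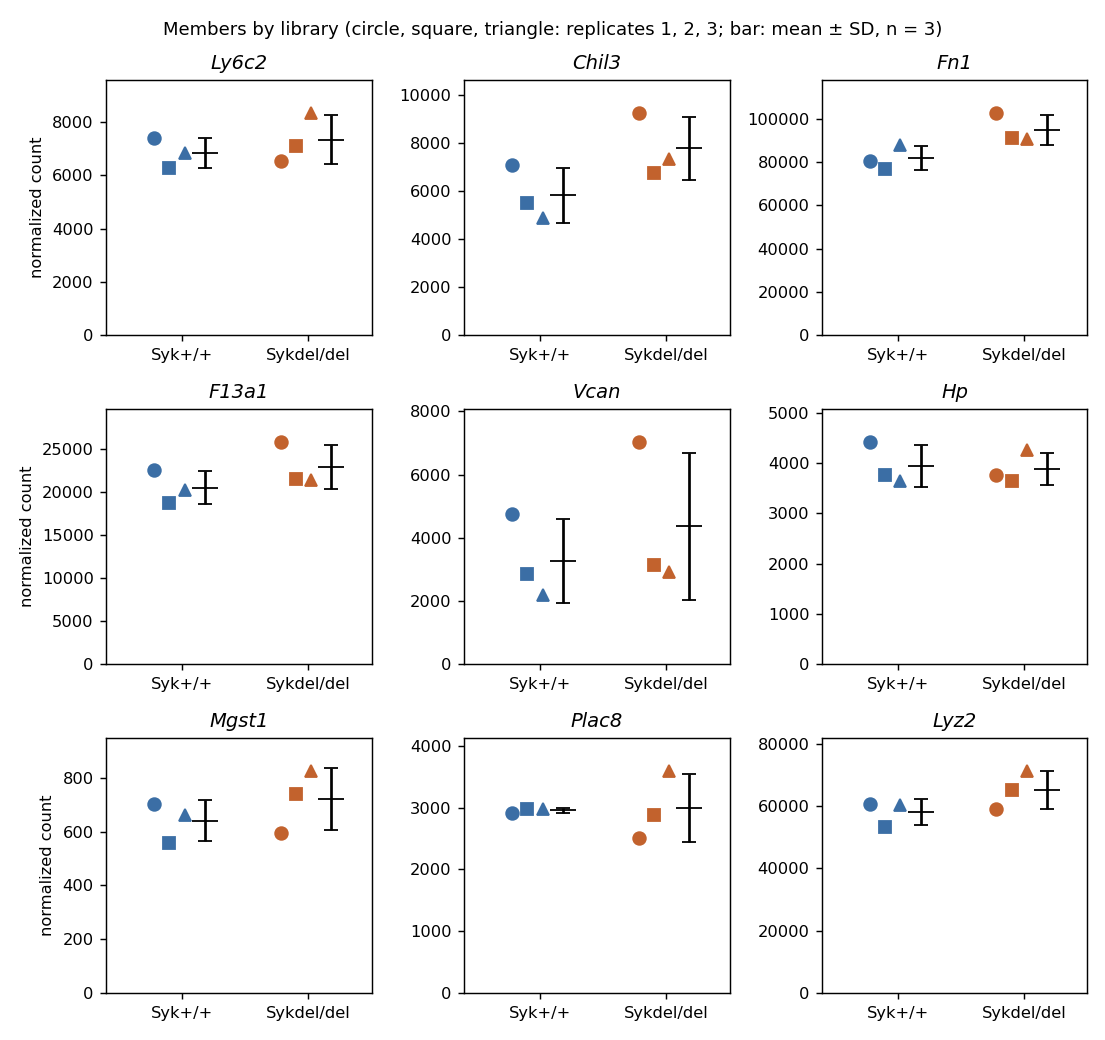
Normalized count (linear axis from 0) of each member in each library, Syk+/+ in blue and Sykdel/del in orange, with circles, squares and triangles for replicates 1, 2 and 3 and a black bar for the mean ± SD (n = 3). Fn1 is the panel in which the genotypes do not overlap, and in Vcan Sykdel/del replicate 1, at 7031, lies far above the others.

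The surface marker Ly6c2 was at a similar level in both genotypes. Its normalized count was 7411, 6288 and 6827 in Syk+/+ and 6550, 7108 and 8340 in Sykdel/del. The genotypes overlapped, with the highest value in Sykdel/del replicate 3 and the lowest in Syk+/+ replicate 2. The log2 fold change was 0.10 (standard error 0.11, 95% interval -0.15 to 0.34, limma adjusted p = 1.00), so a change of more than 1.27-fold upward or below 0.90-fold lies outside the interval. Without Sykdel/del replicate 3 the estimate was -0.00080.

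Among the genes of matrix and clot, Fn1 was the most abundant. Its normalized count was 80656, 76828 and 87755 in Syk+/+ and 102708, 91126 and 90684 in Sykdel/del. Every Sykdel/del library was above every Syk+/+ library, although the gap between the nearest values was small. The means were 81746 ± 5545 and 94839 ± 6818 (SD, n = 3), and the log2 fold change was 0.21 (standard error 0.18, interval -0.17 to 0.60, limma adjusted p = 1.00). The fit takes its spread in part from the trend over all genes, and limma-voom, which weighs each value by its count, gave an adjusted p of 0.82.

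F13a1, whose product cross-links fibronectin, was at 22607, 18802 and 20228 in Syk+/+ and at 25876, 21513 and 21474 in Sykdel/del. The genotypes overlapped through Syk+/+ replicate 1, which lay above 2 of the Sykdel/del libraries. The log2 fold change was 0.16 (standard error 0.13, interval -0.13 to 0.45, limma adjusted p = 1.00).

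Vcan varied among libraries of 1 genotype more than any other member. Its normalized count was 4749, 2835 and 2197 in Syk+/+ and 7031, 3135 and 2906 in Sykdel/del. Replicate 1 was the highest library in each genotype, and the other 4 libraries lay between 2197 and 3135. The coefficient of variation was 40.7% in Syk+/+ and 53.2% in Sykdel/del, against 1.33% to 19.6% for the other members. The log2 fold change was 0.37 (standard error 0.30, interval -0.28 to 1.02, limma adjusted p = 1.00), and without Sykdel/del replicate 1 it was -0.035, so the direction of this gene rests on that library.

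Chil3 had the largest estimate of the secreted members. Its normalized count was 7108, 5491 and 4901 in Syk+/+ and 9254, 6771 and 7332 in Sykdel/del. The genotypes overlapped, since Syk+/+ replicate 1 was above Sykdel/del replicate 2. The means were 5833 ± 1143 and 7786 ± 1303 (SD, n = 3), and the log2 fold change was 0.42 (standard error 0.15, interval 0.10 to 0.74, limma adjusted p = 0.63). It was above 0 in all 18 alternatives, from 0.29 to 0.57, and the lowest adjusted p among them was 0.20. Chil3 is known also from neutrophil precursors, whose secondary granule genes (Ngp, Camp, Ltf, Lcn2 and Fcnb) summed to 759, 256 and 404 normalized counts in Syk+/+ and to 1074, 404 and 350 in Sykdel/del. Both sums were highest in replicate 1 of their genotype, as was Chil3, and 0 of these 5 genes were called, although all 5 estimates were above 0 (median 0.42) and Fcnb was higher in every Sykdel/del library. Their part in the level of Chil3 was not tested.

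Lyz2, the lysozyme of myeloid cells, was at 60696, 53258 and 60237 in Syk+/+ and at 59113, 65036 and 71325 in Sykdel/del. The genotypes overlapped through Sykdel/del replicate 1, the lowest of its genotype. The log2 fold change was 0.16 (standard error 0.17, interval -0.19 to 0.52, limma adjusted p = 1.00). As with Fn1, this spread is taken in part from the trend over all genes. The unadjusted p was 0.34 by limma and 0.097 by limma-voom, and Lyz2 was called by neither.

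Hp was at nearly the same mean in both genotypes, 3941 ± 420 and 3882 ± 327 (SD, n = 3). Its normalized count was 4420, 3764 and 3637 in Syk+/+ and 3754, 3638 and 4253 in Sykdel/del. The highest and the lowest value of the 6 both lay in Syk+/+. The log2 fold change was -0.02 (standard error 0.10, interval -0.24 to 0.20, limma adjusted p = 1.00), the only estimate below 0, and its sign turned with the scaling, to 0.076 when libraries were scaled to monocyte and myeloid defining genes.

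The intracellular members gave the same result. Mgst1 was at 702, 558 and 663 in Syk+/+ and at 596, 740 and 826 in Sykdel/del. The genotypes overlapped, and the log2 fold change was 0.16 (standard error 0.13, interval -0.11 to 0.43, limma adjusted p = 1.00). Plac8 was at 2915, 2984 and 2981 in Syk+/+ and at 2514, 2887 and 3599 in Sykdel/del. The Sykdel/del libraries of Plac8 lay on both sides of the narrow Syk+/+ range, with a coefficient of variation of 18.4% against 1.33%. Its log2 fold change was 0.003 (standard error 0.12, interval -0.25 to 0.26, limma adjusted p = 1.00).

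**Figure D2:**
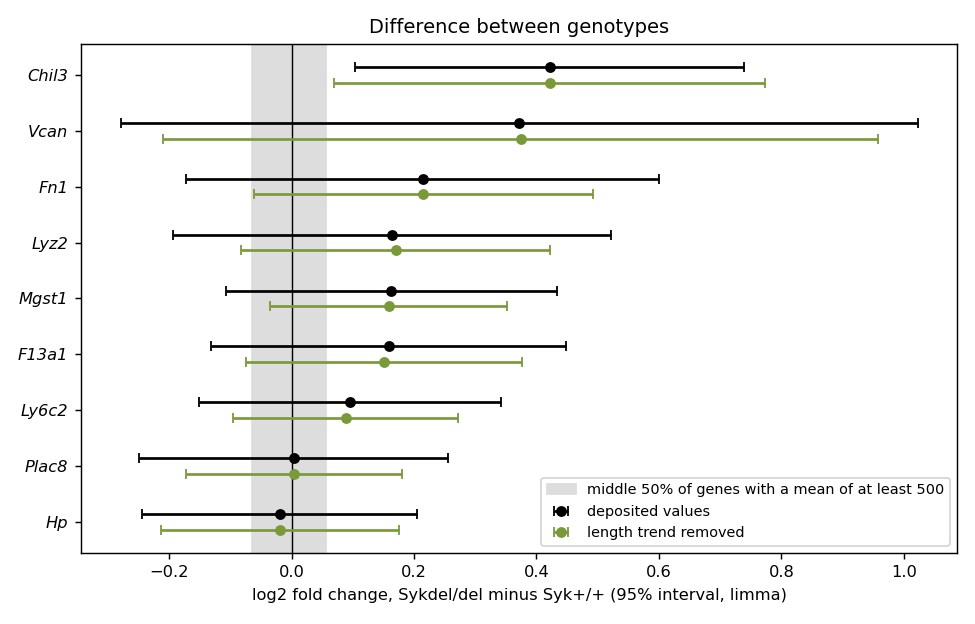
Log2 fold change of Sykdel/del against Syk+/+ for each member with its 95% interval from limma, from the deposited values (black) and with the length trend of each library removed (green). The grey band spans the quartiles (-0.06 to 0.06) of genes with a mean of at least 500, and Chil3 is the only member whose intervals, 0.10 to 0.74 and 0.07 to 0.77, lie above 0.

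The word abundant held for most of the genes and not for all. By the mean normalized count over the 6 libraries, Fn1 ranked 2 and Lyz2 ranked 5 among the 17118 rows above 0. F13a1 ranked 11, Ly6c2 59 and Chil3 64, so 5 of the 9 were among the 100 highest rows. Hp ranked 195, Vcan 206 and Plac8 302, and Mgst1 lay much lower, at 2324. Counts that are not divided by length favour long transcripts, so levels were also set per kilobase of exon (GENCODE M21). On that scale Lyz2 ranked 1, at 46817 normalized counts per kilobase, and Fn1, with 11685 bases of exon, ranked 8 at 7556. Vcan, with 14462 bases, fell to rank 1070 at 263 per kilobase, close to Mgst1 at 338 (rank 782). Chil3 rose to rank 23, and F13a1, Ly6c2, Hp and Plac8 ranked 46, 62, 74 and 102.

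The members together held a slightly larger part of the Sykdel/del libraries. Their sum was 2.95%, 2.61% and 2.90% of the normalized total in Syk+/+ and 3.34%, 3.10% and 3.24% in Sykdel/del, a difference of the means of 0.40 percentage points, given as a description without a test. Fn1 alone made up 1.18% to 1.34% in Syk+/+ and 1.39% to 1.58% in Sykdel/del. Without Fn1 and Lyz2 the other 7 genes held 0.770%, 0.623% and 0.635% against 0.854%, 0.702% and 0.749%, and these ranges overlapped.

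Genes that differed between libraries fell into separate patterns. Chil3, Fn1, F13a1 and Vcan were highest in Sykdel/del replicate 1, and Ly6c2, Mgst1, Plac8 and Lyz2 were highest in Sykdel/del replicate 3. Hp was highest in Syk+/+ replicate 1. Syk+/+ replicate 2 was the lowest library for 5 members. Over the 6 libraries, which share 2 genotypes and their depth and composition, the correlation of log2 values was 0.96 for Mgst1 and Lyz2, 0.95 for Ly6c2 and Mgst1 and 0.91 for Ly6c2 and Lyz2. In the other pattern it was 0.89 for Chil3 and F13a1, 0.88 for F13a1 and Vcan and 0.87 for Chil3 and Vcan. Vcan and Plac8 had r = -0.65, and -0.20 without Sykdel/del replicate 1. Of the 36 pairs 6 had r above 0.8 and 8 were below 0, with a median of 0.32. These counts depended on single libraries. Without Sykdel/del replicate 1 5 pairs were above 0.8, 3 were below 0 and the median was 0.66. Without Syk+/+ replicate 2 the median was 0.13, with 9 pairs above 0.8 and 15 below 0.

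**Figure D3:**
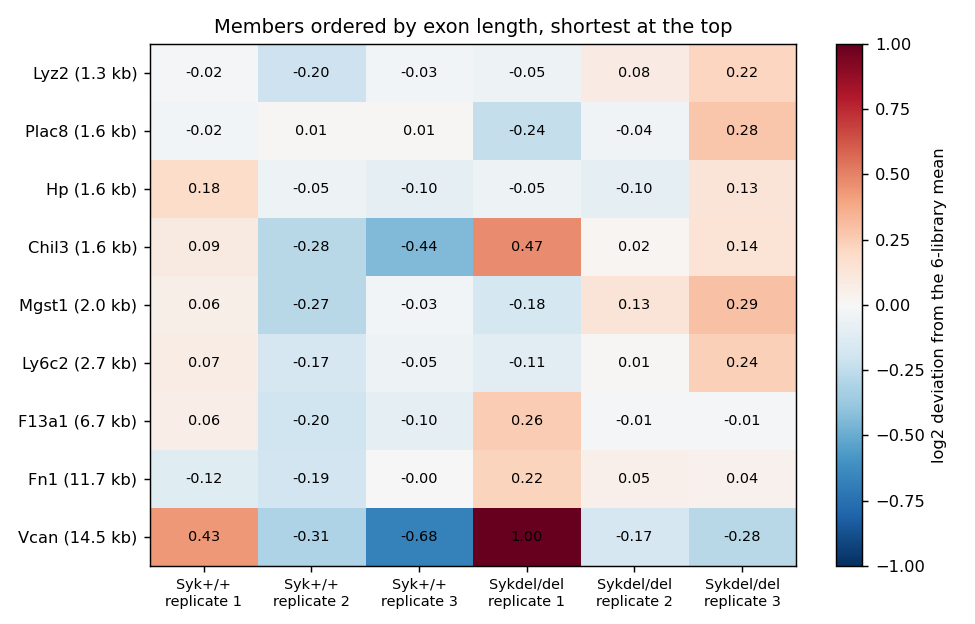
Log2 deviation of each member (rows, ordered by exon length in kilobases) from its own mean over the 6 libraries (columns), red above and blue below, with the value in each cell. In Sykdel/del replicate 1 the long genes Vcan (1.00), F13a1 (0.26) and Fn1 (0.22) and the short Chil3 (0.47) are above their mean and the other 5 below, and in Sykdel/del replicate 3 the short genes are above theirs.

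Gene length moved with these patterns over the whole table. Among genes with a mean of at least 100, the 323 genes under 1500 bases of exon had a median log2 deviation of -0.26 in Sykdel/del replicate 1 and 0.18 in replicate 3, and the 2813 genes of 6000 bases and over had medians of 0.09 and -0.06. Across 7305 genes, which are not independent replicates, the deviation correlated with log2 length at r = 0.45 in Sykdel/del replicate 1 and r = -0.43 in replicate 3, against -0.21 to 0.16 in the other 4 libraries. The members highest in replicate 1 include the longest, Vcan, Fn1 and F13a1, and those highest in replicate 3 have 1316 to 2740 bases. Chil3, with 1632 bases, was an exception. With the length trend of each library removed, a step chosen after the data were seen, r was 0.51 for Mgst1 and Lyz2, 0.40 for Ly6c2 and Lyz2 and 0.87 for Ly6c2 and Mgst1. It was 0.93 for Chil3 and Vcan and 0.88 for Fn1 and Lyz2. Over the 36 pairs the median was then 0.42, with 8 pairs above 0.8 and 8 below 0. The genotype estimates moved little. Chil3 was at 0.42 (limma adjusted p = 0.65), Fn1 at 0.22 with a narrower interval of -0.06 to 0.49, and no member passed the threshold.

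**Figure D4:**
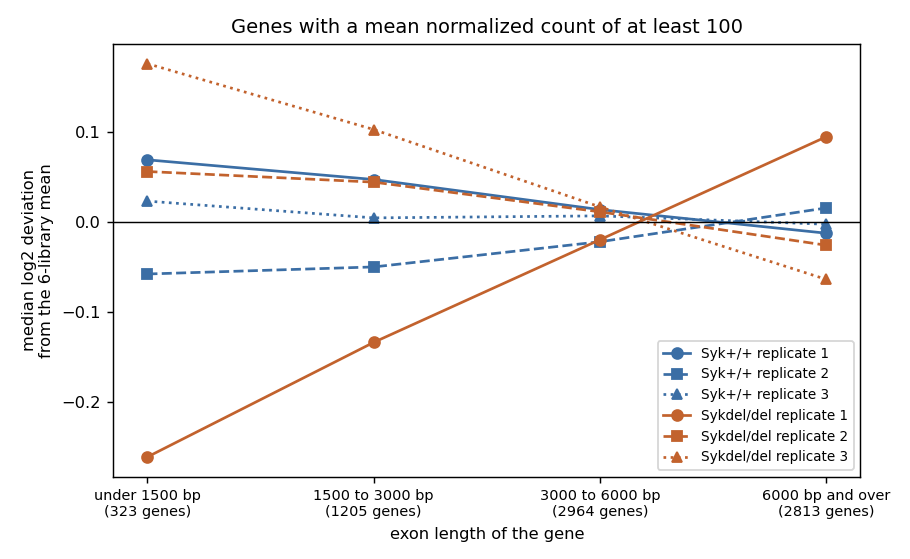
Median log2 deviation from the 6-library mean in 4 classes of exon length, 1 line per library, Syk+/+ in blue and Sykdel/del in orange. Sykdel/del replicate 1 rises from -0.26 in the shortest to 0.09 in the longest class and replicate 3 falls from 0.18 to -0.06, while the other libraries stay within 0.07 of 0.

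For each member, the genes with the most similar profile over the 6 libraries were sought among 7442 genes with a mean of at least 100. Ly6c2 was closest to Rpsa (r = 0.99), a protein of the small ribosomal subunit, and Atp5o (0.99), a subunit of ATP synthase. Mgst1 was closest to the ribosomal gene Rps3a1 (1.00) and to the prostacyclin receptor gene Ptgir (0.99), Plac8 to Hint1 and Znrd1 (both 0.98), and Lyz2 to Glod4 (1.00) and Tmem14c (0.99). In the other pattern, Chil3 was closest to the transcription factor gene Sp3 and the sorting receptor gene Sort1 (both 0.99), Fn1 to Rassf2 (0.99) and Rev1 (0.98), F13a1 to Zfp729a and Gprin3 (both 0.99), and Vcan to Faf1 (1.00) and Etaa1 (0.99). Hp was closest to Gorasp2 and Clptm1l (both 0.98). Correlations this high are picked from many genes over few libraries and describe these libraries only.

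No other gene of classical monocytes was called either. Of 13 such genes 0 passed the threshold by limma, with a median of 0.12 and estimates from -0.87 (Clec4d, at 6.60 ± 2.85 and 3.47 ± 2.81) to 1.01 (Thbs1). An unadjusted p under 0.05 was seen for 3 of 13, beside 5.26% of all genes. All 13 passed the filter on low values, and the chemokine receptor Ccr2 was at 11632 ± 1428 in Syk+/+ and 12657 ± 735 in Sykdel/del. Thbs1, which encodes the matrix protein thrombospondin, was the nearest to a call. Its normalized count was 258, 238 and 262 in Syk+/+ and 371, 773 and 460 in Sykdel/del, with no overlap. The log2 fold change was 1.01 (standard error 0.20, limma adjusted p = 0.054), and 3 of 18 alternatives called it. Without Sykdel/del replicate 1 it was called, at 1.24 with an adjusted p of 0.0071 from limma, and without Sykdel/del replicate 2 it was 0.71 with an adjusted p of 0.081. The range of adjusted p over the alternatives was 0.0040 to 0.62. The Fc receptor gene Fcgr1 (log2 fold change -0.33, adjusted p = 0.76) and the collagenase gene Mmp8 (0.42, adjusted p = 0.84) were not called by limma.

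The factors that drive monocyte genes showed no called difference either. Of 9 regulators none passed the limma threshold (1 at an unadjusted p under 0.05), with a median of 0.03. Spi1, which encodes PU.1, was at 2408 ± 25.8 in Syk+/+ and 2299 ± 337 in Sykdel/del, a log2 fold change of -0.08 that turned to 0.018 when libraries were scaled to monocyte and myeloid defining genes. The C/EBP genes Cebpb, Cebpd and Cebpa had log2 fold changes of -0.30, -0.20 and 0.18, with adjusted p-values of 0.93 to 1.00.

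The close relatives of the members were mostly low, except Ly6e, at 10582 ± 628 in Syk+/+ and 9581 ± 1732 in Sykdel/del. Of 17 relatives 11 were tested, and 5 (Chia1, Plac8l1, Cnfn, Bcan and Ncan) were listed at 0 in every library. Past the threshold 1 was lower and 0 higher, beside 0.349% of all genes lower. The relative that fell was Tgm2, a tissue transglutaminase of the family of F13a1, at 72.0, 176 and 98.7 in Syk+/+ and 23.3, 18.8 and 20.3 in Sykdel/del. The genotypes did not overlap, and the log2 fold change was -2.32 (standard error 0.29, limma adjusted p = 0.0075), whereas that of F13a1 was 0.16. The call of Tgm2 held with any 1 library left out and was lost by limma without the trend (adjusted p = 0.24). Tgm1 and Tgm3 had log2 fold changes of -0.24 and -1.17 that were not called. Within the Ly6 family, Ly6e had a log2 fold change of -0.16, Ly6a (Sca-1) 0.70, Ly6i -1.12 and Ly6g 0.99, none of them called (adjusted p = 0.14 or above by limma). Chil1 and Chil4 were at means of 1.57 to 4.20 normalized counts, and Acan was at 0 in Syk+/+ and at a mean of 0.367 in Sykdel/del.

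Reads of near copies can be exchanged in the counting, and how the authors treated reads that match several genes is not given in the sources used here. Of all stretches of 50 bases in the transcripts of Chil3, 26.9% also occurred in another gene, and the shares were 15.4% for Lyz2 and 14.4% for Ly6c2, with Chil4, Lyz1 and Ly6c1 as the genes sharing most. Fn1 and F13a1 shared 0.589% and 0.209%, and the other 4 members shared none. The copies were low: Ly6c2 was 121 to 239 times as high as Ly6c1, and Lyz2 was 866 to 1623 times as high as Lyz1, in every library. Lyz1 itself was at 50.8 ± 12.3 in Syk+/+ and 53.8 ± 7.31 in Sykdel/del, a log2 fold change of 0.10 (limma adjusted p = 1.00) beside 0.16 for Lyz2. Exons of Fn1 overlap the antisense gene Apol7d and those of F13a1 the antisense gene Gm30489. The libraries kept the strand, but whether it was used in counting is not given in the sources used here.

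Genes that work with the members were described by lists. Of 12 tested partners in matrix and clot, 1 was lower (Tgm2) and 0 higher, beside 0.349% of all genes lower. The median was -0.18, with 9 of the 12 estimates below 0. At an unadjusted limma p under 0.05, 3 were lower (Tgm2, Itgb1 and Itgav) and 2 higher (Thbs1 and F5). The integrin genes Itgb1, lower in every Sykdel/del library, and Itgav had log2 fold changes of -0.26 and -0.32. Neither was called (limma adjusted p = 0.65 and 0.78). Besides Tgm2 and Thbs1, the gene with the smallest p was F5, coagulation factor V, at 445, 441 and 459 in Syk+/+ and 576, 544 and 523 in Sykdel/del. It was higher in every Sykdel/del library, with a log2 fold change of 0.29 (standard error 0.09), and was not called (limma adjusted p = 0.43). Of 5 genes for haptoglobin and haem handling 0 were called by limma, and 2 had an unadjusted p under 0.05. These were Hmox1, the haem oxygenase that breaks down haem, at 631, 693 and 520 against 423, 435 and 460 (log2 fold change -0.47, adjusted p = 0.13), and the iron exporter gene Slc40a1 (-0.82, adjusted p = 0.76). Hp itself, at -0.02, stayed near 0 beside them. Of 8 tested genes of the MAPEG family and glutathione metabolism 0 were called and 0 had an unadjusted p under 0.05, with Gstm1 at 0.13, Alox5ap at 0.14 and Mgst2 at 0.35.

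Genes of non-classical monocytes behaved unlike the members. Of 12 genes 7 were lower and 0 higher past the threshold, beside 0.349% of all genes lower and 0.0214% higher. The median was -1.23, against 0.16 for the members, of which 0 of 9 were called. Examples are Cd300e, a myeloid receptor, at 253 ± 79.4 in Syk+/+ and 57.0 ± 23.4 in Sykdel/del (log2 fold change -2.17, limma adjusted p = 0.0075), Eno3 at -1.56 and Adgre4 at -1.08. Leaving out Syk+/+ replicate 1 brought the count of 7 to 0, leaving out Syk+/+ replicate 2 brought it to 2, and leaving out Sykdel/del replicate 2 to 4, while the median stayed between -1.40 and -1.03 with any 1 library left out. By limma without the trend on the mean the count was also 0. The whole list summed to 17386 to 24291 normalized counts in Syk+/+ and 11837 to 14287 in Sykdel/del, without overlap. It was chosen with earlier results of these data known, and it holds Itgax, which the study itself reported as lower. The part of this list in the share held by the members was not tested.

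**Figure D5:**
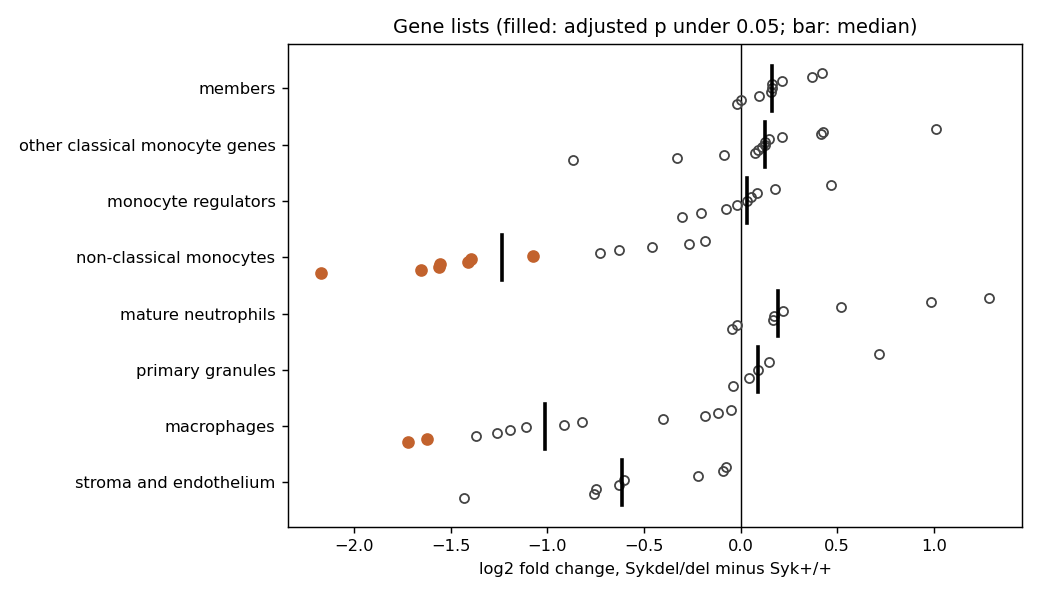
Log2 fold change of Sykdel/del against Syk+/+ (horizontal axis) for each tested gene (circle) of the members and 7 other lists, filled where the limma adjusted p was under 0.05, with a bar at the median of the list. The members and other classical genes lie around medians of 0.16 and 0.12 with no filled circle, while the median of the non-classical genes is -1.23, with 7 filled.

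Several members are also transcribed in neutrophils, macrophages and their precursors, so markers of these cells were set beside them. Genes of mature neutrophils (0 of 8 called) summed to 3226 to 3496 normalized counts in Syk+/+ and 3206 to 3654 in Sykdel/del, and primary granule genes (0 of 5 called) to 2079 to 2448 and 2104 to 2569. Macrophage genes summed to 2281 to 2409 against 1618 to 1987, with a median log2 fold change of -1.01. Of these, 2 of 12 were lower past the threshold (Cd5l and C1qc), beside 0.349% of all genes. This count was 0 without any 1 of the Syk+/+ replicates or without Sykdel/del replicate 2, and 4 without Sykdel/del replicate 1. Stromal and endothelial genes, a source of Fn1 and Vcan, summed to 817 to 1133 against 392 to 1083 (0 of 8 called, median -0.61). The members themselves summed to 170809 to 191263 and 201952 to 217397. Genes of B and plasma cells summed to 284 to 456 against 485 to 718 without overlap (0 of 6 called, 3 higher at an unadjusted p under 0.05). In this list Jchain, the joining chain of antibodies, had a log2 fold change of 0.99 (limma adjusted p = 0.063), while Ms4a1 was listed at 0 in every library. The part of these cells in the levels of the members was not tested.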

How the data were processed

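RNA of bone marrow monocytes (3 Syk+/+ and 3 Sykdel/del libraries, grouped by the genotype label) was extracted with TRIzol, depleted of rRNA and made into directional paired-end libraries. The authors mapped reads to GRCm38/mm10 and counted them with CLC Genomics Workbench, and the deposited values are log2(x + 1), where x is the normalized count. The methods name TPM, but in every library all values were whole multiples of 1 step (tolerance 0.06 of a read) shared by all genes, so x is not scaled by length. The sources used here do not give the version, annotation or strand setting. The deposited table also holds a p-value per gene from the comparison by the authors, which was not used.

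The 9 genes, the gene lists and the tests were chosen with earlier results of these data known. limma 3.58.1 (R 4.3.3, eBayes with trend) was fitted with genotype as the factor to log2(x + 1), with a pseudocount of 1, for genes with x of at least 1 in at least 3 libraries (14023 genes). This filter passed all 9 members. The Benjamini-Hochberg adjustment was used, with a threshold of 0.05. Named genes are the members, their close relatives, from each list described up to 3 genes of lowest p, the 2 genes most like each member (Pearson r, mean of at least 100), and Syk. Ccr2, Spi1, Clec4d and the genes of granules were named after their values were seen, and some genes within the rule are not reported here. Exon lengths and coordinates are from GENCODE M21, and promoters from RefSeq. Alternatives were other scalings, pseudocounts (0.5 and 5) and filters (none, or a mean of at least 5), limma without the trend, limma-voom on recovered reads, a replicate block, leaving out each library, and, chosen after seeing the data, removal of the length trend. Read totals of 4168626 to 7071823 limit the precision of low genes most in the shallowest library.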

Additional observations from a re-analysis of the deposited data

How the results depend on the processing

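No member passed the threshold under any of the 18 alternatives, and Chil3, F13a1, Fn1, Lyz2 and Mgst1 kept estimates above 0 in all of them. Hp turned to 0.0084 with quantile normalization and to 0.076 when scaled to monocyte and myeloid defining genes. With 1 library left out, log2 fold changes ran from -0.087 to 0.066 for Hp, from -0.14 to 0.12 for Plac8, from -0.00080 to 0.17 for Ly6c2, from -0.035 to 0.68 for Vcan, from -0.044 to 0.43 for Ly6c1, from -0.099 to 0.25 for Lyz1, from -0.15 to 0.050 for Spi1, from -0.0073 to 0.20 for Rpsa and from -0.013 to 0.095 for Atp5o. Spi1 turned to 0.018 and Syk to 0.023 with the monocyte scaling, which moved the median of all genes by 0.095. That scaling used Csf1r, Itgam (the row Itgam_1), Cd68, Fcer1g, Tyrobp, Spi1, Ctss and Cx3cr1. Their own log2 fold changes ran from -0.27 (Cx3cr1, also in the list of non-classical monocytes) and -0.25 (Csf1r) up to 0.02. The median r of the 36 pairs ran from 0.13 to 0.66 with 1 library left out, lowest without Syk+/+ replicate 2 and highest without Sykdel/del replicate 1.

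The count of lower genes (49) was 2 with limma without the trend and 4 to 50 with 1 library left out (4 without Syk+/+ replicate 1 or 2, 32 without Syk+/+ replicate 3, 17 without Sykdel/del replicate 2). The count of higher genes (3) was 17 with the monocyte scaling, 1 with a pseudocount of 5, 10 with no filter, 1 with a mean of at least 5, 0 with limma-voom, 8 with the length trend removed, and 0 to 25 with 1 library left out, highest without Sykdel/del replicate 1. The cause was not tested. Same-numbered libraries did not deviate together over all genes tested (r = 0.019, 0.041 and -0.027). Such an r cannot decide whether the numbers pair the libraries, since single genes can still move together. With the replicate block 46 genes were lower and 7 higher, and by limma Chil3 (adjusted p = 0.20) and Vcan (adjusted p = 0.31) were not called. Their unadjusted limma p was 0.0020 and 0.0043 with the block, against 0.013 and 0.24 without it.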
